A study of Mus musculus with 8 samples.

Results

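The thick ascending limb is the last stretch of the loop of Henle in the nephron, and it takes up salt without water. Its cells bring sodium, potassium and chloride in through the apical cotransporter NKCC2, return potassium to the lumen through the channel ROMK, and pass chloride out on the blood side through ClC-K channels with their subunit barttin. The voltage this creates drives sodium, calcium and magnesium between the cells through pores built of claudins, and the same cells secrete uromodulin, the most abundant protein of normal urine. The 9 genes described here were picked by symbol for these roles, out of 15948 genes in the deposited table. They are the salt transport genes Slc12a1 (NKCC2), Kcnj1 (ROMK) and Bsnd (barttin), the claudin genes Cldn10, Cldn16 and Cldn19, the secreted protein genes Umod (uromodulin) and Egf (epidermal growth factor), and Ppp1r1a, an inhibitor subunit of protein phosphatase 1. Some of them are not limited to this segment: ROMK is also found in the collecting duct, barttin in later tubule segments, Egf in the distal convoluted tubule, and an isoform of Cldn10 in the proximal tubule.

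Kidney mRNA was sequenced from 3 samples labelled Arhgef11Sglt2 DOCA and 5 samples labelled Sglt2Cre DOCA, in a study of how knockout of Arhgef11, a guanine nucleotide exchange factor gene, bears on hypertension and kidney injury. DOCA, the mineralocorticoid deoxycorticosterone acetate, was part of both labels, so kidneys without it were not analysed here. Sglt2Cre names a Cre recombinase driven by the promoter of Sglt2, a glucose transporter of early proximal tubule cells, and the study's title speaks of a knockout in that segment besides a systemic one. The Arhgef11Sglt2 name holds the driver's name too, without stating the Cre. The thick ascending limb is thus not the segment that the driver is named for. The sources used here do not give alleles, strain, sex or age of the mice. Nor do they say whether each sample is a mouse of its own, so the p-values rest on a sample-to-sample spread that may be partly technical.

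Arhgef11 itself had 2935, 3919 and 3905 normalized counts in the Arhgef11Sglt2 libraries, against 3629, 3479, 3682, 3680 and 3928 in the Sglt2Cre libraries (limma adjusted p = 0.834), so its whole-kidney level did not check the labels and each direction below is that of the libraries as labelled. A normalized count is the library-scaled count of a gene, obtained here by inverting the deposited log2 scale, and it is not divided by gene length, so levels are compared between libraries and never between genes. These counts summed to between 43040000 and 46680000 per library. All 9 genes were measured in every library, with no value below 170 normalized counts. In limma, 354 genes (2.22% of those tested) passed a Benjamini-Hochberg adjusted p of 0.05, with 1.59% lower and 0.627% higher in the Arhgef11Sglt2 kidneys.

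RefSeq promoters (GRCm38.p6, 250 bases before to 50 bases after the annotated start) were found for 7 of the 9 genes, with 10 start sites. They were searched for the site of HNF1 factors, which are known to act in tubule development and on Umod. The site was spelled as the half-site GTTAAT, 1 free base and the reverse complement ATTAAC, which makes 13 letters, on both strands and with up to 2 mismatches. A match stood in 3 of the 10 member promoters, those of Slc12a1, Umod and the upstream start of Cldn10, and in 1.36% of the 32851 promoters in the table. Each of the 3 had 2 mismatches. These 3 promoters are printed because they hold the match, and the downstream Cldn10 promoter to set beside the upstream one. Of the genes below every Sglt2Cre library in all Arhgef11Sglt2 libraries, Slc12a1 has the match and Kcnj1 and Egf lack it. Cldn10, another of these genes, has it at the upstream start and lacks it at the downstream start. Which start supplies the Cldn10 transcripts of the limb was not tested. Bsnd and Ppp1r1a had no promoter to search. Of the genes that overlapped between the groups, Umod has it and Cldn16 and Cldn19 lack it. Whether the match goes with the values was not tested. In the sequences, printed 5′ to 3′ on the gene's strand, capitals mark the match. The Slc12a1 promoter lies on the plus strand at chr2:125152350-125152649, the Umod promoter on the minus strand at chr7:119479213-119479512, and the Cldn10 promoters on the plus strand at chr14:118787621-118787920 (upstream) and chr14:118854700-118854999 (downstream).
Slc12a1: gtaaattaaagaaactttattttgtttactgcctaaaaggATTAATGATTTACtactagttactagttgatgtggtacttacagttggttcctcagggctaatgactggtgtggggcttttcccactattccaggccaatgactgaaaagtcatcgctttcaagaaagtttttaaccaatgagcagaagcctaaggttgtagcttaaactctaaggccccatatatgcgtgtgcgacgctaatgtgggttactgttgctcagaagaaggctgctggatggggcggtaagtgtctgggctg
Umod: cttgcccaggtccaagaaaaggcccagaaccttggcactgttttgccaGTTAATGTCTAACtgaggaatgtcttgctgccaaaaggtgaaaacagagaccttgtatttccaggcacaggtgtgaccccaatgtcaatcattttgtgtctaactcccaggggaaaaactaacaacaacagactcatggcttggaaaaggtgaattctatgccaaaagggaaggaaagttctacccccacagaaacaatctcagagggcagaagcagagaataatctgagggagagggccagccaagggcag
Cldn10, upstream start: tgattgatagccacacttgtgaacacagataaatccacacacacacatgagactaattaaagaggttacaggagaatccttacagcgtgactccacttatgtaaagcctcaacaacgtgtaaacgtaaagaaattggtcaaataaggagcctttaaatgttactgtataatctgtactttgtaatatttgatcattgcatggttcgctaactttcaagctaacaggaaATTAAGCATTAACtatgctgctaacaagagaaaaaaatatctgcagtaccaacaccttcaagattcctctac
Cldn10, downstream start: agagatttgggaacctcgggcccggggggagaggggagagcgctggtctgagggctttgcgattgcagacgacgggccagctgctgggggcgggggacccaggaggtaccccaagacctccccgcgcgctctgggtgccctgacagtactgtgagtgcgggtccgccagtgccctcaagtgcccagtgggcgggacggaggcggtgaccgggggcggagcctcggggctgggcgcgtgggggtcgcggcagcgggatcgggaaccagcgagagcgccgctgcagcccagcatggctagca
The match began at position -210 in Slc12a1, -202 in Umod and -22 in the upstream Cldn10 promoter, counted from the annotated start. The downstream Cldn10 promoter held none, and neither did those of Kcnj1, Cldn16, Cldn19 and Egf. A match is a description of letters and not of a bound factor. The deposited table gives 1 value per gene, so the transcripts from the 2 Cldn10 starts are counted together.

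Within the set, 8 of the 9 genes had a negative log2 difference between the Arhgef11Sglt2 and Sglt2Cre kidneys, as had 52.1% of all genes. In 6 of them every Arhgef11Sglt2 library lay below every Sglt2Cre library, where 8.14% of all genes did so and 14.3% were apart in either direction. The median log2 difference was -0.40, against -0.007 over all genes. After adjustment over all genes, 1 of the 9 passed in limma, Cldn10, which fell, where 1.59% of all genes were lower, 0.627% higher and 2.22% either; 6 had an unadjusted p under 0.05, as had 21.1% of all genes. In whole-kidney RNA, fewer cells of the limb and less RNA per cell cannot be told apart.

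**Figure D1:**
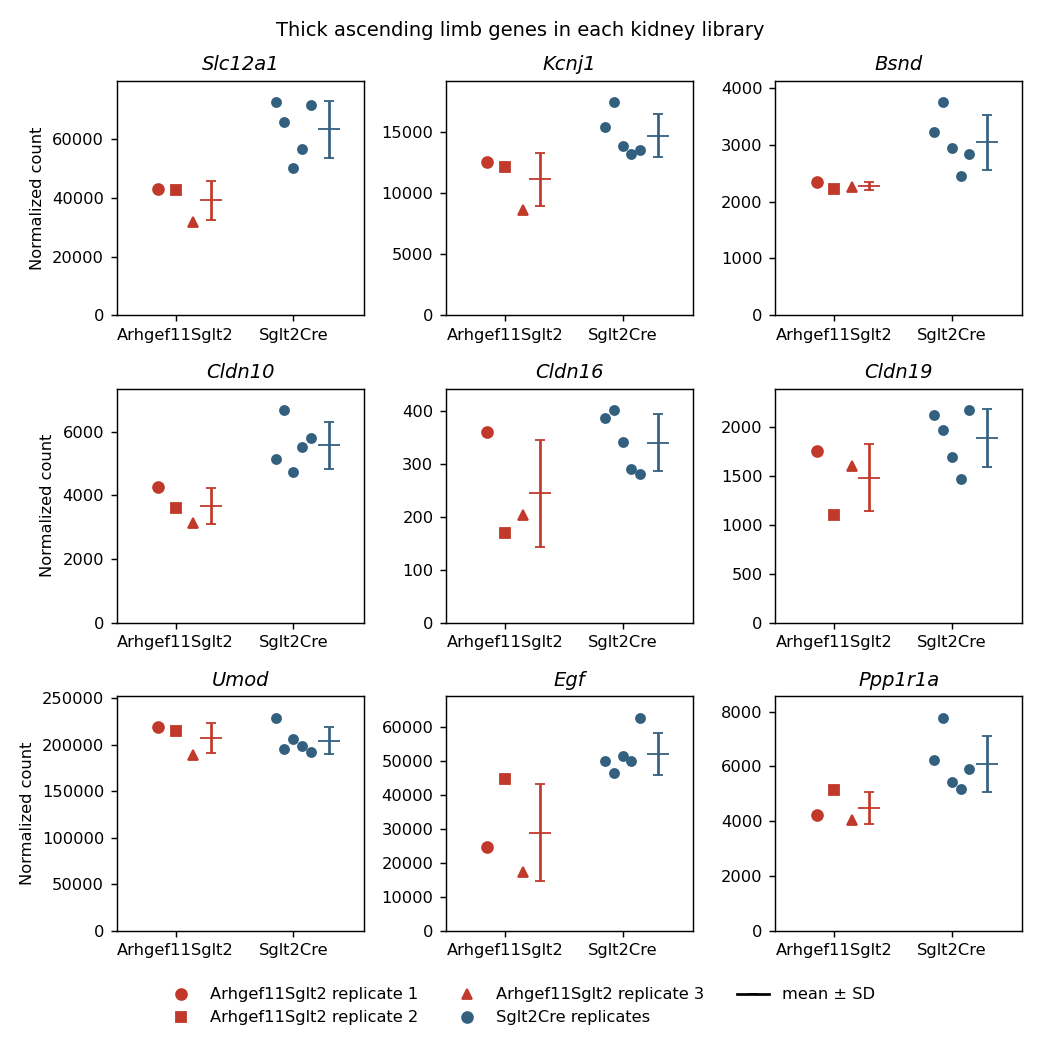
Normalized counts (vertical axes, from 0, one scale per gene) of the 9 thick ascending limb genes in each library. Red symbols are the 3 Arhgef11Sglt2 libraries, with one shape per replicate, blue circles the 5 Sglt2Cre libraries, and bars the mean ± SD. The groups are apart for Slc12a1, Kcnj1, Bsnd, Cldn10, Egf and Ppp1r1a and overlap for Cldn16, Cldn19 and Umod.

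Among the salt transport genes, Slc12a1, the target of loop diuretics, had 43081, 42801 and 31657 normalized counts in the Arhgef11Sglt2 libraries, against 72682, 65820, 50198, 56877 and 71892 in the Sglt2Cre libraries. The groups did not overlap, and Arhgef11Sglt2 replicate 3 was the lowest of the 8 libraries. The mean was 39179 ± 6516 in the Arhgef11Sglt2 kidneys (SD, n = 3) and 63494 ± 9758 in the Sglt2Cre kidneys (SD, n = 5), or 61.7% of the Sglt2Cre mean. The log2 difference was -0.69 (SE 0.16, 95% interval -1.04 to -0.34), and at a limma adjusted p of 0.0536 it missed the threshold. It passed in 3 of 17 alternatives: without Arhgef11Sglt2 replicate 1 (adjusted p = 0.0362 in limma), when genes with a mean under 100 normalized counts were left out (0.0458) and with no variance trend (0.0454). Over the 17 the limma adjusted p reached 0.204, without Arhgef11Sglt2 replicate 3, where the log2 difference was -0.54, and it was 0.198 with a replicate block.

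Kcnj1, whose channel recycles the potassium that NKCC2 needs, had 12595, 12173 and 8650 normalized counts in the Arhgef11Sglt2 libraries, against 15421, 17446, 13841, 13251 and 13576 in the Sglt2Cre libraries. Arhgef11Sglt2 replicate 3 was the lowest library for Kcnj1 as for Slc12a1, and replicates 1 and 2 were just under the lowest Sglt2Cre library. The log2 difference was -0.40 (SE 0.13, limma adjusted p = 0.139), and -0.23 without Arhgef11Sglt2 replicate 3 (limma adjusted p = 0.447). Bsnd had 2354, 2220 and 2258 normalized counts in the Arhgef11Sglt2 libraries, against 3226, 3749, 2944, 2460 and 2834 in the Sglt2Cre libraries. The Arhgef11Sglt2 libraries were close together for Bsnd, with a coefficient of variation of 3.03%, against 15.8% in the Sglt2Cre libraries. Its log2 difference was -0.34 (SE 0.11, limma adjusted p = 0.113).

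Of the claudins, an isoform of Cldn10 forms a pore that passes sodium. Claudin-16 and claudin-19 work as partners in the passage of calcium and magnesium. The Cldn10 values count its isoforms together, and the part of the proximal tubule isoform in them was not tested. Cldn10 had 4265, 3616 and 3147 normalized counts in the Arhgef11Sglt2 libraries, against 5149, 6679, 4722, 5523 and 5802 in the Sglt2Cre libraries. Without overlap, Cldn10 fell to 3676 ± 561 in the Arhgef11Sglt2 kidneys (SD, n = 3), against 5575 ± 738 in the Sglt2Cre kidneys (SD, n = 5), a log2 difference of -0.54 (SE 0.12, limma adjusted p = 0.0476). This call is at the edge of the threshold. Of the 8 fits that left out 1 library it passed only without Arhgef11Sglt2 replicate 1 (adjusted p = 0.0208 in limma); without any other library the limma adjusted p ran from 0.0589 (Sglt2Cre replicate 3) to 0.18 (Arhgef11Sglt2 replicate 3). With the libraries scaled to equal totals the limma adjusted p was 0.0709, with a replicate block 0.252, and with library number range as a term 0.0523.

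Cldn16 had 360, 170 and 203 normalized counts in the Arhgef11Sglt2 libraries, against 386, 401, 342, 290 and 281 in the Sglt2Cre libraries. Arhgef11Sglt2 replicate 1 lay among the Sglt2Cre libraries and replicates 2 and 3 below all of them. The log2 difference was -0.23 (SE 0.11, limma adjusted p = 0.256) with -0.37 without Arhgef11Sglt2 replicate 1 (adjusted p = 0.0385 in limma) and -0.14 without replicate 2 (0.549). Without replicate 3 the limma adjusted p was 0.601. The deposited scale compresses low values, so for a gene at this level the log2 difference understates the ratio of the means, 71.8%. Cldn19 had 1756, 1100 and 1599 normalized counts in the Arhgef11Sglt2 libraries, against 2121, 1968, 1691, 1474 and 2175 in the Sglt2Cre libraries. Here replicate 2 alone was below every Sglt2Cre library, and the log2 difference was -0.27 (SE 0.13, limma adjusted p = 0.274). Without that library it was -0.12 (limma adjusted p = 0.629). All 3 claudins were highest in replicate 1 within the Arhgef11Sglt2 group.

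Umod had 218953, 214357 and 188453 normalized counts in the Arhgef11Sglt2 libraries, against 229031, 195279, 205560, 198853 and 192171 in the Sglt2Cre libraries. Its mean was 207255 ± 16444 in the Arhgef11Sglt2 kidneys (SD, n = 3) and 204179 ± 14759 in the Sglt2Cre kidneys (SD, n = 5). The groups overlapped and the log2 difference was 0.02 (SE 0.13, limma adjusted p = 0.944); its 95% interval, -0.26 to 0.30, is the range of differences compatible with these libraries. In these libraries Umod was also the least variable of the 9 genes among the Sglt2Cre kidneys, with a coefficient of variation of 7.23%.

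Egf, made as a membrane-bound precursor that is cut to release the growth factor into urine, had 24721, 44793 and 17199 normalized counts in the Arhgef11Sglt2 libraries, against 50130, 46526, 51535, 50187 and 62837 in the Sglt2Cre libraries. Replicate 2 of the Arhgef11Sglt2 group came close to the lowest Sglt2Cre library, and the other replicates were far below it. The mean was 28904 ± 14265 in the Arhgef11Sglt2 kidneys (SD, n = 3) and 52243 ± 6207 in the Sglt2Cre kidneys (SD, n = 5). With a log2 difference of -0.94 (SE 0.25, limma adjusted p = 0.0788) Egf had the most negative value of the set but also the widest spread, a coefficient of variation of 49.4% in the Arhgef11Sglt2 kidneys. Without replicate 2 of that group the log2 difference was -1.31 (limma adjusted p = 0.0107), without replicate 3 it was -0.63 (limma adjusted p = 0.257), and with array weights -0.52 (limma adjusted p = 0.166).

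Ppp1r1a, which holds protein phosphatase 1 in check once protein kinase A has phosphorylated it, had 4234, 5128 and 4056 normalized counts in the Arhgef11Sglt2 libraries, against 6218, 7781, 5430, 5165 and 5912 in the Sglt2Cre libraries. The groups did not overlap, though Arhgef11Sglt2 replicate 2 nearly met Sglt2Cre replicate 4. The log2 difference was -0.40 (SE 0.13, limma adjusted p = 0.116), and -0.24 with array weights (limma adjusted p = 0.226).

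The numbers in the library names fell into a lower range, with Arhgef11Sglt2 replicates 1 and 2 and Sglt2Cre replicates 1, 2 and 3, and a higher range with the others. What the numbers stand for is not stated. Within the lower range, mean Slc12a1 in the Arhgef11Sglt2 kidneys was 68.3% of that in the Sglt2Cre kidneys, and within the higher range 49.2%. Cldn10 was at 71.4% in the lower range and 55.6% in the higher, and Egf at 70.4% and 30.4%. Bsnd was at 69.2% and 85.3%, and Umod at 103% and 96.4%. The 8 genes with a negative log2 difference over all libraries thus had a negative one within both ranges, and the sign for Umod differed between them. The higher range held 1 Arhgef11Sglt2 library, so no test was made within it.

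A ratio of 2 transcripts within a library does not depend on how libraries were scaled, and 9 ratios were compared with two-sided exact permutation tests over all 56 assignments of the group labels. The ratio of Umod to Slc12a1 was 5.08, 5.01 and 5.95 in the Arhgef11Sglt2 libraries, against 3.15, 2.97, 4.10, 3.50 and 2.67 in the Sglt2Cre libraries. All 3 Arhgef11Sglt2 libraries lay above all Sglt2Cre libraries, and the ratio was 1.65-fold higher on average (log2 difference of the ratio 0.72). The exact permutation p was 0.0179, the smallest that 56 assignments can give, and 0.161 after Benjamini-Hochberg adjustment over the 9 ratios, so it does not pass. The adjustment over 9 ratios leaves no room for a single ratio to pass at this sample size.

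The other ratios overlapped between the groups. The ratio of Kcnj1 to Slc12a1 was 0.292, 0.284 and 0.273 in the Arhgef11Sglt2 libraries, against 0.212, 0.265, 0.276, 0.233 and 0.189 in the Sglt2Cre libraries (log2 difference of the ratio 0.28, exact permutation p = 0.0714, adjusted p = 0.321). The ratio of Cldn10 to Slc12a1 differed by 0.09 on the log2 scale (exact permutation p = 0.482, adjusted p = 0.542). For Egf to Slc12a1 the difference was -0.26 (exact permutation p = 0.268, adjusted p = 0.402), with replicate 2 of the Arhgef11Sglt2 group at 1.05 and replicates 1 and 3 at 0.574 and 0.543. The partners Cldn16 and Cldn19 had a ratio of 0.205, 0.154 and 0.127 in the Arhgef11Sglt2 libraries, against 0.182, 0.204, 0.202, 0.197 and 0.129 in the Sglt2Cre libraries (log2 difference -0.18, exact permutation p = 0.429, adjusted p = 0.542). The ratios of Bsnd, Cldn16, Cldn19 and Ppp1r1a to Slc12a1 had differences from 0.16 to 0.34 and exact permutation p from 0.161 to 0.643.

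**Figure D2:**
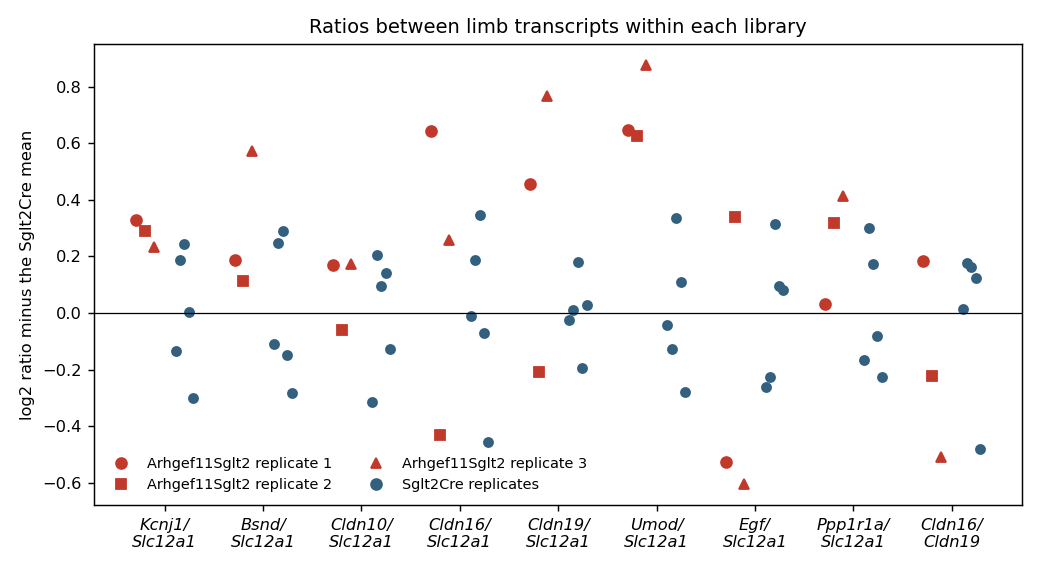
Log2 ratio of pairs of thick ascending limb transcripts within each library (vertical axis), set to 0 at the mean of the Sglt2Cre libraries. Red symbols are the Arhgef11Sglt2 libraries and blue circles the Sglt2Cre libraries; of the 9 ratios, Umod to Slc12a1 is the one where the groups are apart.

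Other genes of the limb were taken from 5 lists of 44 genes, all measured. The RNA was from whole kidney, so their values are not those of the limb alone, and the part of other segments was not tested. In limma, none of the 44 passed after adjustment over all genes, where 2.22% of all genes passed. An unadjusted p under 0.05 was found for 16 of them, against 21.1% of all genes, and a negative difference for 29, against 52.1%. Their median log2 difference was -0.09. In 8 of them all Arhgef11Sglt2 libraries lay below all Sglt2Cre libraries and in 6 above, against 8.14% and 6.2% of all genes.

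Of the 12 salt transport partners and kinases, 8 had a negative difference (median -0.07). Fxyd2, the gamma subunit of the sodium pump, had 46654 ± 1963 normalized counts in the Arhgef11Sglt2 kidneys (SD, n = 3) and 55568 ± 4109 in the Sglt2Cre kidneys (SD, n = 5; log2 difference -0.25, limma adjusted p = 0.176). The kinase gene Oxsr1 (OSR1) and the scaffold gene Cab39 (MO25), which together act on NKCC2 by phosphorylation, had log2 differences of 0.16 and 0.19, with limma adjusted p of 0.171 and 0.247. For both, every Arhgef11Sglt2 library lay above every Sglt2Cre library, but without Arhgef11Sglt2 replicate 3 the log2 difference of Cab39 was 0.078 (limma adjusted p = 0.686).

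Of the 9 genes of calcium sensing and tight junctions, 4 had a negative difference and 5 a positive one (median 0.11). Casr, the calcium-sensing receptor gene, named here after its values were seen, had 3173, 3379 and 3194 normalized counts in the Arhgef11Sglt2 libraries, against 4111, 3445, 3643, 4154 and 4290 in the Sglt2Cre libraries. Every Arhgef11Sglt2 library was below every Sglt2Cre library (log2 difference -0.24, limma adjusted p = 0.136). Cldn14, a claudin that blocks the claudin-16 and claudin-19 pore and responds to the calcium-sensing receptor, had 31.2, 37.3 and 71.8 normalized counts in the Arhgef11Sglt2 libraries, against 23.7, 8.15, 13.6, 17.2 and 6.86 in the Sglt2Cre libraries. The groups did not overlap and the means differed 3.36-fold, but at a limma adjusted p of 0.0791 it missed the threshold, which it passed without Arhgef11Sglt2 replicate 1 (0.0427). Cldn4 had 4121, 2497 and 3599 normalized counts in the Arhgef11Sglt2 libraries, against 2340, 1904, 2848, 2294 and 1797 in the Sglt2Cre libraries (log2 difference 0.50, limma adjusted p = 0.113). Cldn3 had a log2 difference of 0.30 (limma adjusted p = 0.134), and both passed without Arhgef11Sglt2 replicate 2 (adjusted p of 0.0441 for Cldn4 and 0.0357 for Cldn3 in limma). Without replicate 3 the limma adjusted p was 0.346 for Cldn4 and 0.41 for Cldn3, and with array weights the log2 differences were 0.23 (limma adjusted p = 0.371) and 0.13 (limma adjusted p = 0.425). Cldn3 and Cldn4 are barrier claudins of several distal segments, so their levels are not those of the limb alone.

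Of the 6 hormone receptor and cyclase genes, 5 had a negative difference (median -0.25). The vasopressin receptor gene Avpr2 had 613, 405 and 196 normalized counts in the Arhgef11Sglt2 libraries, against 698, 858, 665, 524 and 793 in the Sglt2Cre libraries (log2 difference -0.50, limma adjusted p = 0.13). Its mean in the Arhgef11Sglt2 kidneys was 57.2% of the Sglt2Cre mean. The log2 difference understates this, as the deposited scale compresses low values. The prostaglandin E2 receptor gene Ptger3 had a log2 difference of -0.47 (limma adjusted p = 0.184), and the parathyroid hormone receptor gene Pth1r, also expressed in the proximal tubule, one of -0.30 (limma adjusted p = 0.0908). For Avpr2 and Ptger3, Arhgef11Sglt2 replicate 3 had the lowest value of all 8 libraries, and without it the log2 differences were -0.28 and -0.23 (limma adjusted p of 0.41 and 0.58). Without Arhgef11Sglt2 replicate 1, Avpr2 and Pth1r passed (limma adjusted p of 0.0289 and 0.0466), and Pth1r also with array weights (0.0417).

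Of the 8 transcription factor genes, 5 had a negative difference (median -0.13). The estrogen-related receptor gene Esrrg, a regulator of mitochondrial metabolism, had 3946, 4256 and 2875 normalized counts in the Arhgef11Sglt2 libraries, against 4559, 5011, 4790, 5053 and 5105 in the Sglt2Cre libraries. The groups did not overlap (log2 difference -0.38, limma adjusted p = 0.0915). Ppargc1a, a coactivator of mitochondrial genes, and Tfap2b, a factor of the distal nephron, had log2 differences of -0.21 and 0.24, with limma adjusted p of 0.272 and 0.292. Without Arhgef11Sglt2 replicate 3 the log2 differences of Esrrg, Ppargc1a and Tfap2b were -0.23, -0.077 and 0.068 (limma adjusted p of 0.229, 0.758 and 0.808).

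Of 9 other transcripts enriched in the limb, 7 had a negative difference (median -0.08). Sostdc1, a secreted antagonist of BMP and Wnt signals, had 4656, 3748 and 1746 normalized counts in the Arhgef11Sglt2 libraries, against 6214, 9282, 6489, 4934 and 4887 in the Sglt2Cre libraries. Its log2 difference was -0.87 (limma adjusted p = 0.113), and replicate 3 was lowest again. It passed without Arhgef11Sglt2 replicate 1 (limma adjusted p = 0.0433) and with library number range as a term (0.0272), and without replicate 3 the log2 difference was -0.51 (limma adjusted p = 0.362). Tmem207, a membrane protein gene, had a log2 difference of -0.49 (limma adjusted p = 0.106). Its mean in the Arhgef11Sglt2 kidneys was 48.6% of the Sglt2Cre mean, which the log2 difference on the compressed scale understates. Muc1, a membrane mucin, went the other way, with 2258, 2152 and 3044 normalized counts in the Arhgef11Sglt2 libraries, against 1767, 1379, 1585, 1306 and 1886 in the Sglt2Cre libraries (log2 difference 0.51, limma adjusted p = 0.0619, and 0.0439 without Arhgef11Sglt2 replicate 1).

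**Figure D3:**
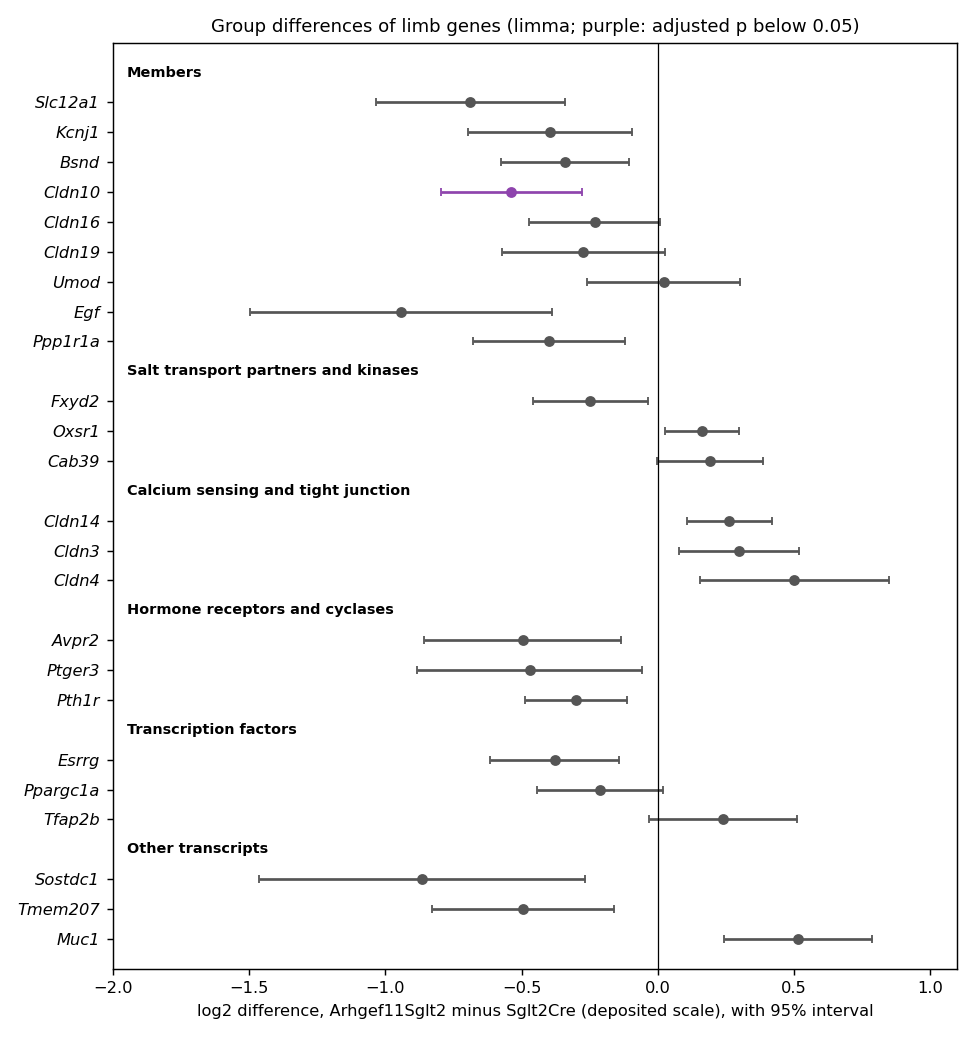
Log2 difference of Arhgef11Sglt2 minus Sglt2Cre kidneys on the deposited scale (horizontal axis) with its 95% interval from limma, for the 9 members and the 3 genes with the smallest p of each of the 5 other lists of limb genes. Purple marks an adjusted p below 0.05, which Cldn10 alone of the genes drawn has; Umod lies at 0.02, and Muc1, Cldn4, Cldn3, Cldn14, Oxsr1, Cab39 and Tfap2b lie above 0.

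Genes that act on the products of the set were read from 3 further lists. The proteases Hpn (hepsin), which releases uromodulin from the cell surface, and Prss8 (prostasin) had log2 differences of 0.03 and -0.08, with limma adjusted p of 0.895 and 0.68. Of 6 EGF family ligand and receptor genes measured of 8, none passed in limma, where 2.22% of all genes did. An unadjusted p under 0.05, which 21.1% of all genes had, was found for 2 of them. These were Erbb3, a receptor for neuregulins (log2 difference 0.32, limma adjusted p = 0.156), and Hbegf, another ligand of the EGF receptor (log2 difference 0.35, limma adjusted p = 0.226). Erbb3 passed without Arhgef11Sglt2 replicate 1 (limma adjusted p = 0.0219) and with array weights (0.0331), and without Arhgef11Sglt2 replicate 3 the log2 difference of Hbegf was 0.12 (limma adjusted p = 0.663). The ligand gene Btc had a log2 difference of 0.11 (limma adjusted p = 0.558). Of the 6 genes 5 had a positive difference and 1 a negative one, with a median of 0.08.

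Of 7 genes of protein phosphatase 1 and protein kinase A, 1 was lower in limma, where 1.59% of all genes were lower. Ppp1r1b, which codes for the phosphatase inhibitor DARPP-32 and like Ppp1r1a is expressed in the limb, had 1596, 1217 and 1177 normalized counts in the Arhgef11Sglt2 libraries, against 2627, 2479, 1839, 1874 and 2595 in the Sglt2Cre libraries. It fell to 1330 ± 231 in the Arhgef11Sglt2 kidneys (SD, n = 3), against 2283 ± 393 in the Sglt2Cre kidneys (SD, n = 5; log2 difference -0.60, SE 0.13, limma adjusted p = 0.0458). The call was lost with equal totals (limma adjusted p = 0.0621), with a replicate block (0.189), and on leaving out any 1 library other than Arhgef11Sglt2 replicate 1, where the limma adjusted p ran from 0.0513 (Sglt2Cre replicate 3) to 0.172 (Arhgef11Sglt2 replicate 3). The catalytic subunit gene Ppp1cc had a log2 difference of 0.30 (limma adjusted p = 0.23; 0.13 without Arhgef11Sglt2 replicate 3, with a limma adjusted p of 0.676) and the kinase gene Prkaca one of -0.15 (limma adjusted p = 0.22).

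Markers of other cells were read beside these values. Of 6 early proximal tubule markers, 2 were lower in limma, where 1.59% of all genes were lower. These were the endocytic receptor gene Lrp2 (log2 difference -0.73, adjusted p = 0.0462) and the phosphate cotransporter gene Slc34a1 (log2 difference -0.72, adjusted p = 0.0491). The mean of that list relative to the Sglt2Cre libraries was -0.73, 0.05 and -0.69 in Arhgef11Sglt2 replicates 1, 2 and 3, whereas the mean of the 9 limb genes was -0.32, -0.34 and -0.61, with the Sglt2Cre libraries between -0.13 and 0.13. For the proximal list the Sglt2Cre libraries lay between -0.09 and 0.11, so its mean in replicate 2 was inside their range, but its members differed in that library. Lrp2 had 85850 normalized counts in Arhgef11Sglt2 replicate 2, against 100570 in the lowest Sglt2Cre library, and Slc34a1 had 142040, against 163372, both below. The lactate transporter gene Slc5a12 had 24377 in Arhgef11Sglt2 replicate 2, against 16606 in the highest Sglt2Cre library, and the bicarbonate cotransporter gene Slc4a4 had 69608, against 60961, both above; these 2 were named after their values were seen. Of 6 markers of injured tubule, 2 were higher in limma, where 0.627% of all genes were higher. These were Lcn2 (3.14-fold, adjusted p = 0.0154) and Krt20 (7.47-fold, adjusted p = 0.0458). Krt20 had 2481, 697 and 626 normalized counts in the Arhgef11Sglt2 libraries, against 120, 294, 245, 122 and 68.2 in the Sglt2Cre libraries. Its fold thus rests largely on Arhgef11Sglt2 replicate 1. The list's summed normalized counts, to which Spp1 gives most, ran from 399635 to 922873 in the Arhgef11Sglt2 kidneys and from 164813 to 589690 in the Sglt2Cre kidneys. That list's mean relative to the Sglt2Cre libraries was 1.68, 0.61 and 0.36 in Arhgef11Sglt2 replicates 1, 2 and 3, with the Sglt2Cre libraries between -0.53 and 0.39. The Lrp2, Slc34a1 and Krt20 calls were lost without Arhgef11Sglt2 replicate 3 (limma adjusted p of 0.154, 0.196 and 0.0704) and without any 1 of the Sglt2Cre libraries (limma adjusted p from 0.0514 to 0.124), and that of Slc34a1 also without Arhgef11Sglt2 replicate 1 (0.052). The Lcn2 call was lost without Arhgef11Sglt2 replicate 3 (limma adjusted p = 0.0581) and without Sglt2Cre replicate 4 (0.0565).

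Over all genes, 2.22% passed in limma and 21.1% had an unadjusted p under 0.05. No marker of the other lists passed in limma. These were macula densa (1 of 3 with an unadjusted p under 0.05), thin limb (1 of 4), distal convoluted tubule (1 of 5), connecting tubule (2 of 4), principal cell (1 of 6) and intercalated cell (2 of 5), and podocyte, endothelium, fibroblast and pericyte, and macrophage (0 of 5 in each). Connecting tubule markers had a median log2 difference of -0.41, against -0.40 for the 9 limb genes, and means of -0.38, -0.39 and -0.55 in Arhgef11Sglt2 replicates 1, 2 and 3. Distal convoluted tubule markers had a median of -0.14 and principal cell markers of -0.08. The part of proximal tubule, connecting tubule or injury changes in the limb gene values was not tested, and none of these lists was tested against the limb genes.

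**Figure D4:**
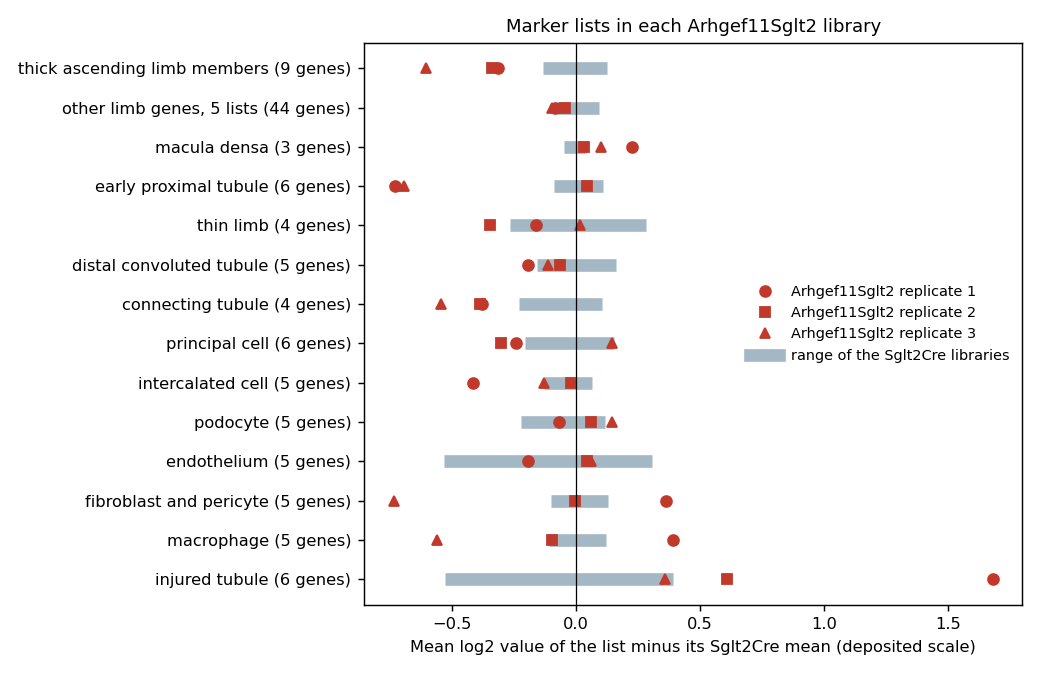
Mean log2 value of each marker list relative to its mean in the Sglt2Cre libraries (horizontal axis, deposited scale). Red symbols are the 3 Arhgef11Sglt2 libraries, and blue bars the range of the 5 Sglt2Cre libraries; all 3 Arhgef11Sglt2 libraries lie below the bar for the thick ascending limb members (-0.61 to -0.32) and for connecting tubule markers (-0.55 to -0.38), while the mean of the early proximal tubule markers has replicate 2 inside it.

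The genes most like the set were taken as those whose log2 values over the 8 libraries, centred on their own mean, lay nearest to the mean profile of the 9 genes. Of 7310 genes with a mean of at least 1000 normalized counts, the nearest outside the set were Fam81a, Lrba, Atp6v1b1, Csrp2, Pctp, Sardh, Hspa12a and Scd2, with root-mean-square differences from 0.06 to 0.08 on the log2 scale. Atp6v1b1 codes for a proton pump subunit of intercalated cells, Sardh for sarcosine dehydrogenase, Scd2 for a fatty acid desaturase and Pctp for a phosphatidylcholine transfer protein. All 8 had every Arhgef11Sglt2 library below every Sglt2Cre library, which the choice by likeness favours. Of the members, Kcnj1 was nearest to the mean profile (0.09, rank 23 of 7310), followed by Ppp1r1a (0.11, rank 106), Bsnd (0.12, rank 142) and Cldn10 (0.12, rank 161). Slc12a1 stood at 0.18, Cldn19 at 0.20, Umod at 0.24 and Egf at 0.41 (rank 6655), so the members were not equally near to the mean profile. Each member is itself part of that mean, which favours a near rank. The distance also takes in the size of a difference, so it does not tell a larger change from another pattern. Cldn16 had a mean under 1000 normalized counts and was not ranked.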

How the data were processed

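Poly(A) RNA from whole kidney was made into stranded libraries and sequenced in paired ends, per the labels' protocols. The submitters' processing notes name GRCm39, DESeq2 and Salmon 1.10.0; for the annotation and the gene filter, the sources used here give nothing. The deposited values are log2 values made by the authors: 0 of them are whole numbers and the 8 columns share a minimum of 8.1275, the value of a zero count on a variance-stabilized scale, whose closed form was inverted to normalized counts. Low values so obtained were within 0.02 of a whole step in 40.9% of cases. The step was chosen in each library to make this share largest, so the 4% for evenly spread values and a fixed step is too low a comparison. Most low values were off a whole step, so reads were not recovered and read depth is unknown.

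Tests used limma 3.58.1 in R 4.3.3 on the deposited scale, with group as the only term and a variance trend; p-values were adjusted over 15948 genes by Benjamini-Hochberg, with a threshold of 0.05; the procedure was tested on simulated data. Folds and percentages are ratios of mean normalized counts. Log2 differences from limma are on the deposited scale, which compresses low values, so for genes with low counts they understate such ratios. Symbols matched 15902 identifiers (99.71%); the files are of GRCm39 and the reference of GRCm38, so the coordinates printed are those of the RefSeq promoters on GRCm38.p6 alone. The members and lists were chosen with earlier results of these data known. Named are all members, Arhgef11, the 3 genes with the smallest p of each list of limb, protease, EGF and phosphatase genes, the marker genes of other cells that passed, and the 8 nearest profiles; Casr, Slc5a12 and Slc4a4 were added after their values were seen. Alternatives covered a filter on low values, pseudocounts of 1 and 10, equal totals, variance shrinkage, array weights, blocks, and each library left out in turn; those for the other limb genes and the named genes outside the set were chosen after seeing the data.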

Additional observations from a re-analysis of the deposited data

Results flagged for a closer look

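Of 54 sets of 5 Sglt2Cre values looked at, 4 held a library far from the others by Dixon's criterion (gap over range above 0.71), where chance gives about 1 in 20. The ratio of Cldn16 to Cldn19 was 0.129 in Sglt2Cre replicate 5, against 0.182 to 0.204 in the other Sglt2Cre libraries. Lrp2 had 100570 normalized counts in Sglt2Cre replicate 1, against 116321 to 119977 in the others. Sglt2Cre replicate 2 was high for Csrp2 (4178, against 3511 to 3648) and for Pctp (1911, against 1572 to 1663).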

How the results depend on the processing

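The count of genes past the threshold was 354; it was 874 with array weights, 0 with a replicate block (2166 genes at an unadjusted p under 0.05 in limma) and 24 to 1334 when each library was left out in turn (24 without Sglt2Cre replicate 4, 1334 without Arhgef11Sglt2 replicate 1). The share of higher calls was 28.2%, and 45.6% with equal totals. Of the 9 members 1 passed; it was 2 with the filter on low values and with no variance trend, 0 with equal totals, with a replicate block and with library number range as a term (6, 7 and 7 members at an unadjusted p under 0.05 in limma), and 0 to 3 with each library left out. Of the 44 other limb genes 0 passed (16 at an unadjusted p under 0.05 in limma); it was 1 with array weights and with library number range as a term, and 0 to 5 with each library left out. No pairing of the samples by replicate number was seen, though so few libraries cannot exclude one. Deviations of same-numbered libraries correlated at -0.175, -0.088 and -0.00676, and those of differently numbered ones at -0.0878 to 0.107. The block leaves 2 residual degrees of freedom.

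Signs turned for values near 0. Umod was -0.019 with a replicate block and -0.020 to 0.088 with each library left out. Prss8 was 0.019 with array weights and -0.18 to 0.0015 with each library left out (above 0 without Arhgef11Sglt2 replicate 1). Hpn was -0.049 to 0.18 with each library left out (below 0 without Arhgef11Sglt2 replicate 2 or 3). Arhgef11 was 0.027 with array weights and -0.10 to 0.079 with each library left out (above 0 without Arhgef11Sglt2 replicate 1). The log2 ratio of Cldn16 to Cldn19 was 0.042 as a difference of deposited values, a scale that compresses low values, and that of Cldn16 to Slc12a1 ran from -0.086 (without Arhgef11Sglt2 replicate 1) to 0.45. Where no construction is named, the cause was not tested. No ratio passed under any alternative run, and the ratio of Umod to Slc12a1 kept its sign, at 0.64 to 0.80. The 8 members other than Umod kept a negative sign in all 17 alternatives. With 3 Arhgef11Sglt2 libraries, small differences were not detectable.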
